A study of Mus musculus with 36 samples.

Results

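The transcripts described here are the 37 genes of the mouse mitochondrial genome (chromosome M), taken as every row of the count tables whose identifier carries the chrM suffix, out of 20848 rows in all. The other rows were 20720 nuclear genes and 91 ERCC spike-in RNAs, synthetic transcripts added to every well. All 37 rows matched a GENCODE gene, and they comprise 13 protein-coding genes (mRNA), 2 ribosomal RNAs (rRNA) and 22 transfer RNAs (tRNA). Their share of the unique molecular identifiers (UMIs, random tags that mark single transcripts) and the mix among them were measured in every well with at least 1000 UMIs over the nuclear rows.

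Single cells were taken from the infarcted left ventricular region in male C57BL/6 mice aged 8 weeks, and were sorted into 384-well plates for SORT-seq, a plate-based protocol that primes on poly(A) tails. Ischemia-reperfusion (IR) was a 1-hour ligation of the left anterior descending coronary artery, and its cells fill 9 plates of day 1, 7 of day 3 and 3 of day 14. Sham-operated hearts fill 4 plates of day 1 and 8 of day 14, and hearts with myocardial infarction (MI), a permanent ligation of the same artery, fill 5 plates of day 3. The study used fewer mice than plates in most groups, so some plates share a mouse, and p-values measure only the spread between plates.

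The mitochondrial genome encodes core subunits of respiratory complexes I, III and IV and of the ATP synthase, together with the rRNAs and tRNAs needed to translate them. Both strands are transcribed into long precursors in which tRNAs lie between the longer genes and are cut out, after which the mRNAs and rRNAs receive short poly(A) tails. Cardiomyocytes are among the cells richest in mitochondria, since contraction runs on oxidative phosphorylation. Some of the genes overlap by a few bases, and tRNAs do not normally carry poly(A) tails.

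These features bear on what a poly(T) primer can count, and the sequences that follow show them (GENCODE transcripts on GRCm38, forward strand). The first pair are the overlaps between neighbouring genes, with the shared bases in capitals: 43 bases belong to both mt-Atp8 and mt-Atp6 (chrM:7907-7989 is shown), and 7 bases to both mt-Nd4l and mt-Nd4 (chrM:10147-10193). The others are some of the tRNAs, with the longest run of A in capitals: the tRNAs for isoleucine (mt-Ti, chrM:3706-3774), methionine (mt-Tm, chrM:3845-3913), arginine (mt-Tr, chrM:9808-9875) and one for serine (mt-Ts2, chrM:11613-11671).
mt-Atp8 end and mt-Atp6 start: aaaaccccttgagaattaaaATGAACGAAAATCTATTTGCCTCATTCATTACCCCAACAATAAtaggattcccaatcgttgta
mt-Nd4l end and mt-Nd4 start: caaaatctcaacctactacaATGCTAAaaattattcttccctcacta
mt-Ti: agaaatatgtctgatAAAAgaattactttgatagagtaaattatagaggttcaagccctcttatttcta
mt-Tm: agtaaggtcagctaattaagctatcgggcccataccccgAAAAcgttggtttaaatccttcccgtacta
mt-Tr: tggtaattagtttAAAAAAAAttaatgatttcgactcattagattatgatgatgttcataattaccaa
mt-Ts2: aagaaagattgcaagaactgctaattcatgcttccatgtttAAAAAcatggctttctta
The longest internal A run was 4 bases in mt-Ti and mt-Tm, 5 in mt-Ts2 and 8 in mt-Tr. Over all kept wells mt-Ti had 12924 UMIs, mt-Tm 8811, mt-Ts2 513 and mt-Tr 73. Among the tRNAs not shown, mt-Th has a run of 6 and had 980 UMIs, and mt-Tl2 has a run of 5 and had 111. The part of such runs in the counts was not tested.

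Of 13824 wells on 36 plates, 3146 held at least 1000 nuclear UMIs, and these held 23599210 chrM UMIs. Total UMIs per plate ranged from 176614, in day 14 sham, to 5551870, in IR day 3. The tables of replicates 2 and 7 of day 14 sham hold 1 plate, so their mean was used as 1 replicate. A further 45 wells (20 of them with at least 1000 nuclear UMIs) matched a deeper well of the same position on another plate. A match needed a correlation above 0.1 that exceeded those with the plate's other wells by at least 0.05. On day 14 sham replicate 2, 18 wells matched IR day 3 replicate 6, and these groups are compared below. Wells were clustered on nuclear rows and named from markers, which gave 1179 cardiomyocyte-like, 633 macrophage-like, 407 endothelial-like, 297 fibroblast-like and 156 neutrophil-like wells. The cardiomyocyte-like wells held 780 UMIs of cardiomyocyte markers per 10000 nuclear UMIs, the fibroblast-like wells 355 of fibroblast markers, the neutrophil-like wells 379 of neutrophil markers and the macrophage-like wells 102 of macrophage markers. The endothelial-like wells held 121 of endothelial markers but also 95.2 of cardiomyocyte markers, and 133 of them carried markers of a second class. The remaining wells were 21 mural-like, 12 erythrocyte-like and 441 unnamed, and plates entered a comparison with at least 5 wells of the class.

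Messenger RNAs supplied 79.5% of chrM UMIs, rRNAs 20.3% and tRNAs 0.147%. The most counted gene was mt-Rnr2, the large (16S) rRNA, with 14.1%, followed by mtCo1, a catalytic subunit of complex IV, with 11.4%, and mtNd4, of complex I, with 10.5%. Next came mtCytb, of complex III, with 9.29%, mtAtp6, of the ATP synthase, with 8.84%, mtCo2 with 8.73% and mtNd2 with 8.52%. The other genes above 1% were mtNd1 (6.93%), mt-Rnr1, the small (12S) rRNA (6.27%), mtCo3 (6.15%), mtNd5 (4.94%), mtNd3 (2.40%) and mtNd4l (1.42%). Each of these 13 genes was found in at least 99.3% of the kept wells, and together they held 99.4% of chrM UMIs. The remaining 24 genes shared 0.601%.

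Per kilobase of gene, mtAtp6 and mtCo2 led, with 13.0 and 12.8 percent of chrM UMIs per kb, ahead of mt-Rnr2 with 8.90. Among the 13 most counted genes mtNd5 was the lowest per length, with 2.71. The 2 protein-coding genes below 1% were mtAtp8, with 0.386% (1.89 per kb, seen in 93.5% of wells), and mtNd6, with 0.0674% (0.130 per kb, seen in 66.5% of wells). mtNd6 encodes a complex I subunit and is the only mRNA of the light strand. The 22 tRNAs ranged from 16 UMIs for mt-Tf to 12924 for mt-Ti, and 20 of them were found in under 50% of the wells. Heavy-strand tRNAs held 0.135% of chrM UMIs and light-strand tRNAs 0.0125%. Whether strand was used in counting is not given in the sources used here, so values of the light-strand genes, which lie opposite heavy-strand transcripts, are uncertain, as are those of overlapping genes and of genes with copies in the nuclear genome.

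A UMI of 6 bases allows 4096 values per gene and well, and the highest count was 4096. mt-Rnr2 reached at least 4000 UMIs in 86 wells and at least 2000 in 626 wells. The counts of the most abundant chrM genes in the richest wells are therefore compressed from above.

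The cell classes differed widely in their chrM share. The median well held 79.1% chrM UMIs among cardiomyocyte-like, 39.4% among endothelial-like, 27.4% among neutrophil-like, 12.6% among fibroblast-like and 11.5% among macrophage-like wells. Mural-like wells had a median of 21.6%, erythrocyte-like wells 34.9% and unnamed wells 47.9%. The median cardiomyocyte-like well had 9816 chrM UMIs beside 2276 nuclear UMIs, so its high share came with few nuclear UMIs. The median fibroblast-like well had 2368 chrM beside 16652 nuclear UMIs, and the median macrophage-like well 1684 beside 12010. The median endothelial-like well had 2556 chrM and 3436 nuclear UMIs, and the median neutrophil-like well 840 and 2092. All these medians pool the groups: MI supplied 132 of 297 fibroblast-like and 282 of 633 macrophage-like wells, but 19 of 1179 cardiomyocyte-like wells. In fibroblast-like wells of MI the plate medians averaged 45284 nuclear UMIs and a share of 7.36%, against 4328 and 21.6% in day 1 sham.

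Part of this order was also seen within plates, where they share surgery, sort and library. Cardiomyocyte-like wells had the higher median share on 17 of 18 plates with endothelial-like wells, on 13 of 15 with macrophage-like wells and on 12 of 13 with fibroblast-like wells, with median differences of 33.4, 60.9 and 56.6 percentage points. MI replicate 2 was the plate where endothelial-like wells were higher. Endothelial-like wells were higher than fibroblast-like wells on 19 of 19 plates, by a median of 18.6 points, and higher than macrophage-like wells on 20 of 21. The place of the endothelial-like class moved with cardiomyocyte markers: its clusters 10, 5 and 14 had median shares of 18.8, 39.0 and 73.8% beside 8.41, 78.5 and 470 marker UMIs per 10000, and 60 of the 62 wells of cluster 14 carried markers of a second class. The part of that RNA in the order was not tested. Neutrophil-like wells were higher than macrophage-like wells on 14 of 14 plates, by 13.7 points. For neighbours in the order the direction turned within plates. Fibroblast-like wells were above macrophage-like wells on 7 of 17 plates, with a median difference of -0.450 points, and neutrophil-like wells above endothelial-like wells on 9 of 13, with a median difference of 3.43 points. These are descriptions with no test, because the classes were made from the nuclear UMIs of the same wells.

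**Figure D1:**
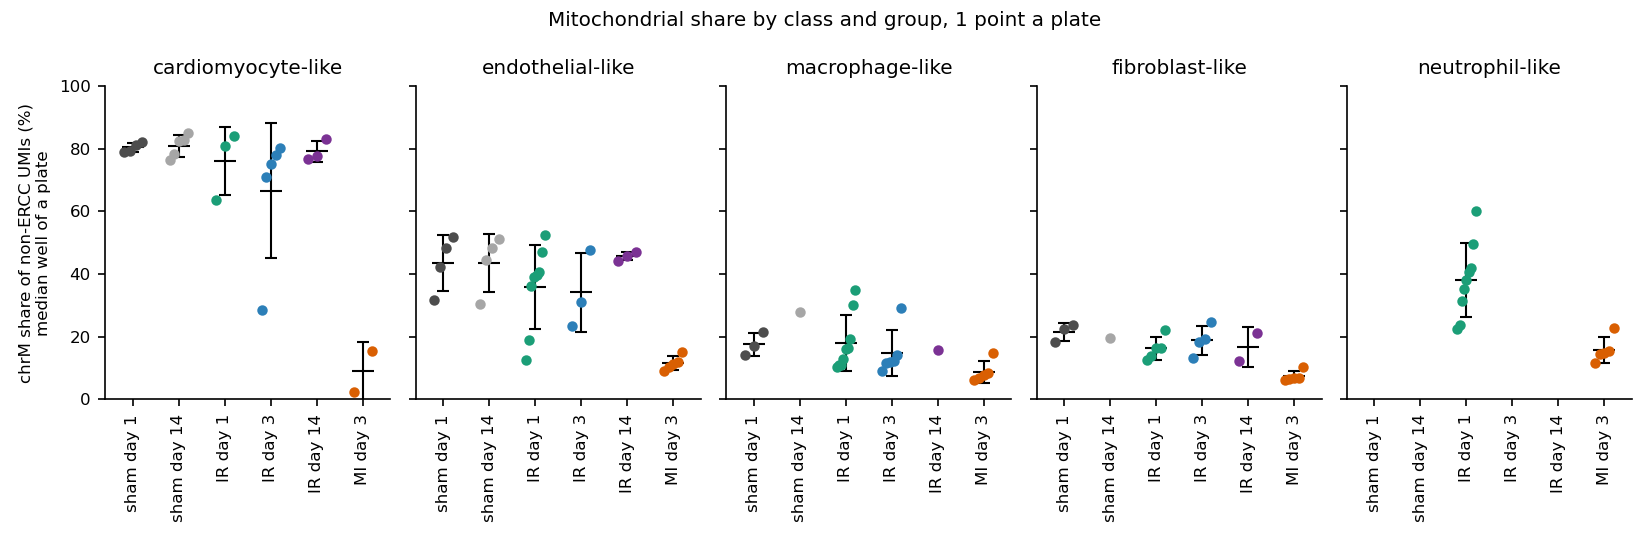
Median chrM share of a plate's wells (percent of UMIs without spike-ins) for 5 cell classes, 1 panel each, with plates as points by group and bars for the group mean ± SD (cut at 0). The 2 MI plates of the cardiomyocyte-like class sit at 2.38 and 15.5%, while the 9 sham plates lie between 76.5 and 85.1%.

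In cardiomyocyte-like wells the chrM share differed little between most groups, and the 2 MI plates stood apart. The plate medians of day 1 sham were 79.3, 82.1, 81.1 and 79.0% (80.4% ± 1.47, SD, n = 4). Those of day 14 sham were 85.1, 82.7, 76.5, 78.3 and 82.4% (81.0% ± 3.51, n = 5). The sham groups of the 2 days overlapped and differed by less than their spread.

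After IR, the plates of day 1 were at 80.8, 63.8 and 84.0% (76.2% ± 10.9, n = 3). Those of day 3 were at 28.4, 70.8, 78.0, 75.3 and 80.2% (66.6% ± 21.6, n = 5), and those of day 14 at 77.8, 83.0 and 76.8% (79.2% ± 3.35, n = 3). No sham plates of day 3 were analysed here, so IR day 3 was read against both sham groups. All 3 IR groups overlapped sham: the differences were -4.18 points for day 1 against day 1 sham, -14.2 for day 3 against all sham plates and -1.78 for day 14 against day 14 sham. On day 3, 3 of 5 plates lay below every sham plate. The lowest of them, replicate 3, held only 5 cardiomyocyte-like wells with a median of 1070 nuclear UMIs, and without it the day 3 difference was -4.64 points. IR day 14 was 12.7 points above IR day 3, and 3.13 points above it without that plate. Without replicate 2 of IR day 1 the day 1 difference was 2.03 points, so its sign rested on that plate. Among single wells, 70.6% of day 1 sham and 74.0% of day 14 sham wells had a chrM share of at least 75%, against 55.9%, 51.2% and 59.9% of the wells taken 1, 3 and 14 days after IR.

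Single chrM genes were tested against nuclear UMIs, in edgeR's quasi-likelihood test on sums per plate with library size and TMM scaling from the nuclear rows and Benjamini-Hochberg adjustment over all rows tested. A log2 fold change here is therefore a change of the gene relative to the nuclear transcripts of the same wells, and levels are UMIs per 1e6 nuclear UMIs, without TMM scaling. Counts of genes whose plates do not overlap were made on the TMM-scaled values of the fit, and are given on the unscaled levels too where these gave another count. In cardiomyocyte-like wells 34 chrM rows were tested among 4359, and mt-Tf, mt-Tl2 and mt-Ty were too rare.

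IR day 1 against day 1 sham, which asks for the early change after reperfusion, gave 3 lower and 1 higher chrM genes. Over all rows tested 15.1% were called lower and 2.50% higher, so these few calls are near the background. The level of mtNd6 was 2281, 543 and 1836 per 1e6 nuclear UMIs on the IR plates and 4191, 3053, 2538 and 837 on the sham plates, which overlap through the last sham plate, and it fell by 1.67 on the log2 scale (SE 0.53, adjusted p 0.0186). mt-Ts2 fell by 2.92 (SE 0.83, adjusted p 0.00747), from 103, 62.2, 175 and 281 in sham to 41.5, 54.3 and 24.8. The IR levels rest on 3 UMIs in all, against 127 in sham, a ratio of 0.248 with a counting interval of 0.0505 to 0.742, and without IR replicate 3 the call was lost.

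The tRNA for histidine, mt-Th, fell by 1.99 (SE 0.61, adjusted p 0.0147), from 216, 243, 282 and 176 in sham to 82.9, 163 and 99.2. The tRNA for asparagine, mt-Tn, rose by 1.36 (SE 0.49, adjusted p 0.0387), although 1 of the 3 IR plates carried most of it: its IR levels were 124, 1521 and 174 against 78.0, 102, 108 and 113 in sham. The largest positive change was that of mt-Tp, the tRNA for proline, at 1.59 (SE 0.91, adjusted p 0.211), which did not pass. The median log2 fold change was -0.72 over the chrM genes and -0.93 over the nuclear rows, so the median chrM gene lay above the median nuclear gene. Of the chrM genes 13 lay below every sham plate on every IR plate on the scaled values, where 31.4% of all rows did, but on the unscaled levels 4 lay below and 6 above, where 15.8% and 8.79% of all rows did. The direction depended on the scaling, since DESeq2 called 2 chrM genes and both were higher. Cardiomyocyte markers were 277 to 397 UMIs per 10000 on the IR day 1 plates and 564 to 787 on the day 1 sham plates, and 26 of the 34 IR day 1 wells lay in 1 cluster (cluster 4) that held 12 day 1 sham wells. When wells with 500 UMIs or more were clustered, 25 of the 34 fell outside the named classes.

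IR day 3 against both sham groups gave 16 lower and 0 higher chrM genes, while 1.79% of all rows were called lower and 4.61% higher. Different clusters held the class: 148 of the 299 IR day 3 wells lay in cluster 4, against 12 of 238 and 5 of 235 wells in the sham groups (days 1 and 14), and when wells with 500 UMIs or more were clustered 120 of the 299 fell outside the named classes, against 4 and 1. The part of this makeup in the calls was not tested. The 16 were 15 tRNAs and mtNd6. None of the 13 abundant genes was called by edgeR, though 9 of them had an unadjusted p under 0.05 and their log2 fold changes ran from -1.26 to -0.66, with a smallest adjusted p of 0.0691. DESeq2 called 15 of the 34 lower, and scaling to the ERCC spike-ins left 8 called. The median log2 fold change was -1.46 over the tested chrM genes, -2.27 over the tRNAs and 0.05 over the nuclear rows.

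The lowest was mt-Ts2, which fell by 3.80 (SE 0.61, adjusted p 4.59e-07) with 7 UMIs on the IR day 3 plates and 159 on the sham plates. Leaving out single plates moved its change from -4.23 to -2.51, the latter without day 14 sham replicate 1, where it was no longer called. Its IR day 3 levels were 0, 4.59, 37.0, 0 and 3.06 per 1e6 nuclear UMIs, and its day 14 sham levels 116, 0, 18.3, 0 and 0. It was thus at 0 UMIs on 3 of the day 14 sham plates as well, and IR day 3 and day 14 sham overlapped, while every day 1 sham plate lay above every IR day 3 plate. mtNd6 fell by 1.68 (SE 0.39, adjusted p 0.00123), with 322, 918, 887, 906 and 811 in IR day 3 and a sham range of 638 to 4191. The highest was mtAtp6, at -0.66 (SE 0.44, adjusted p 0.456), with IR day 3 levels of 324046, 191110, 229541, 322671 and 359662 and a sham range of 285930 to 414806. Against day 14 sham alone 6 chrM genes were called, and without replicate 1 of day 14 sham 10.

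By day 14 after IR, cardiomyocyte-like wells had 0 chrM genes called against day 14 sham, by edgeR and by DESeq2, and 6 had an unadjusted p under 0.05. Calls were rare over all rows too, at 0.229% higher and 0.0229% lower. No chrM gene separated the plates on the scaled values, and on the unscaled levels 1 lay above and 2 below, where 3.56% and 0.688% of all rows did. The changes ran from -0.52 for mtNd2 (adjusted p 0.973) to 1.28 for mt-Tn (adjusted p 0.553). The change of mt-Tn was 0.72 without replicate 2 of IR day 14 and 2.89, then past the threshold, without replicate 1 of day 14 sham, and without the latter plate 3 genes were called.

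Against IR day 3, day 14 had 13 higher and 0 lower chrM genes, where 1.40% of all rows were called higher and 2.36% lower. Here too the clusters differed, since cluster 4 held 31 of the 354 day 14 wells and clusters 0 and 1 held 162 and 136. They were 12 tRNAs and again mtNd6. mt-Ts2 rose by 3.86 (SE 0.64, adjusted p 2.45e-06), to 91.2, 80.8 and 71.1 per 1e6 nuclear UMIs, above every IR day 3 plate. mtNd6 rose by 2.50 (SE 0.47, adjusted p 4.87e-05), to 2465, 5253 and 3022, also above every IR day 3 plate. mtAtp6 had the smallest change, 0.40 (adjusted p 0.843), with overlapping plates. In all, 18 chrM genes were above every day 3 plate on every day 14 plate on the scaled values, where 10.3% of all rows were, and 11 on the unscaled levels, where 3.99% of all rows were. DESeq2 called 8 chrM genes and ERCC scaling left 6, with mtAtp6 at -0.39. The 3 day 14 plates were all rich in tRNA, as were the day 1 sham plates, and this property of a plate was shared by its other cell classes, as described further on. Neither its part in these calls nor that of the clusters was tested.

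**Figure D2:**
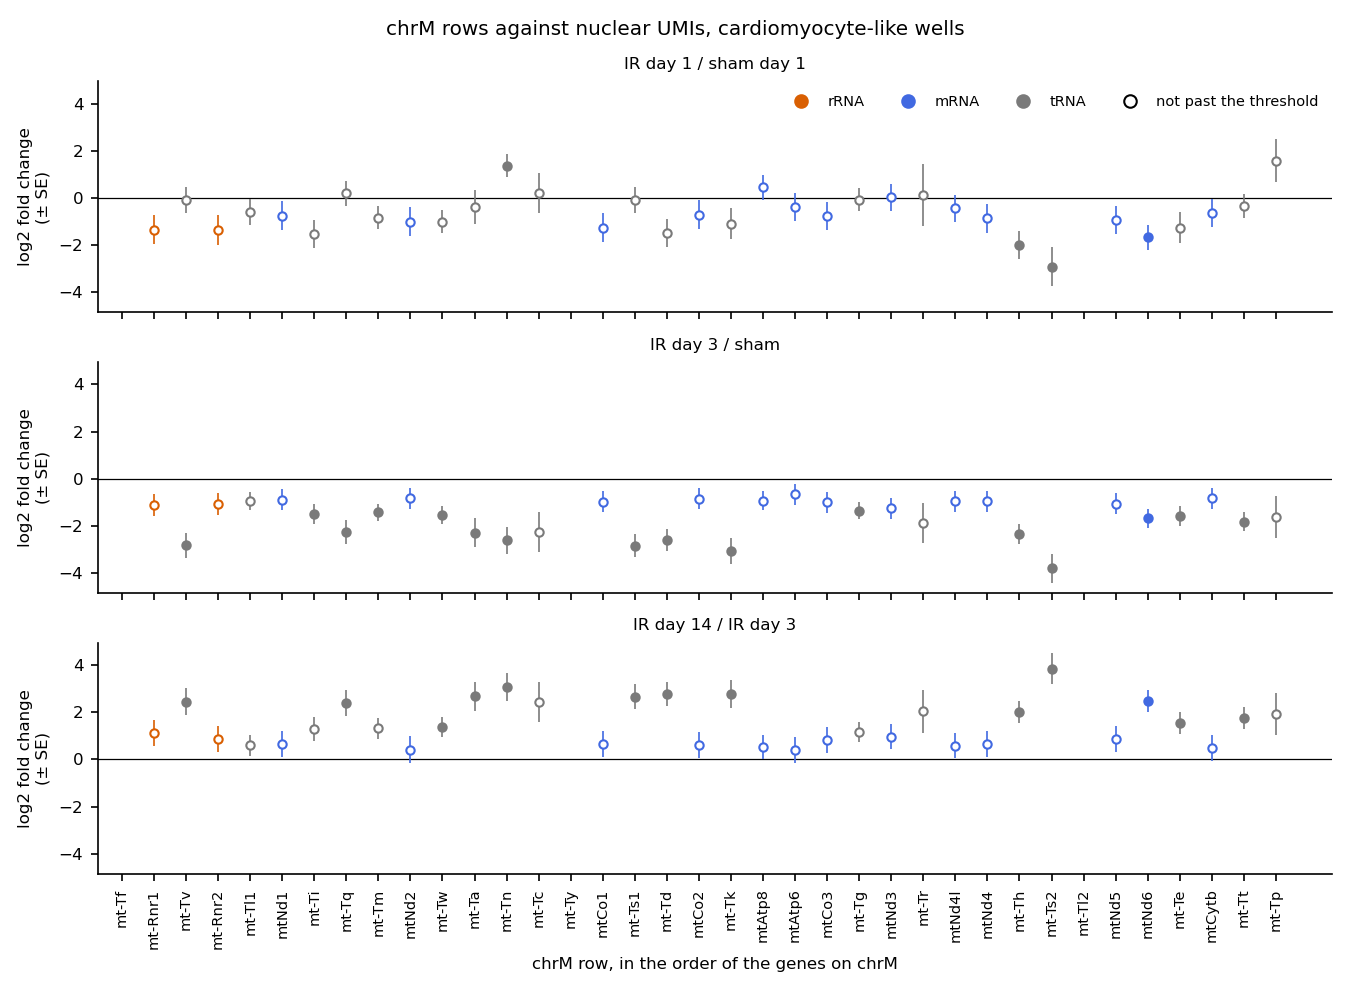
Log2 fold changes ± SE relative to nuclear UMIs of the 34 chrM genes tested in cardiomyocyte-like wells, in 3 comparisons, in genome order. Filled points passed the adjusted threshold, and colour gives rRNA, mRNA or tRNA. The filled points for IR day 3 against sham are 15 tRNAs and mtNd6.

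The cardiomyocyte-like wells of MI day 3 held far less chrM RNA. Only 2 MI plates had at least 5 such wells, and their median shares were 2.38% and 15.5%, below all 9 sham plates (80.7% ± 2.66, range 76.5 to 85.1%), a difference of -71.8 points. chrM UMIs per well were 331 and 747 on these plates, against 6361 to 14523 on sham plates. Nuclear UMIs were higher, with 11944 and 4015 per well against 1592 to 2931, so both terms of the share moved. Spike-in UMIs were higher as well, at 1094 to 1118 per well against 72.0 to 631.

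Over all 5 MI plates there were 19 cardiomyocyte-like wells, with a median share of 5.83%. Of these, 17 had a share under 25% and 1 had 87.4%, with 21749 chrM UMIs. Without that well the counts ran from 169 to 1625 chrM UMIs, beside 1672 to 43229 nuclear UMIs. The wells carried cardiomyocyte markers, with a median of 471 UMIs per 10000 (73.3 to 935). It was 672 and 903 in the sham groups (days 1 and 14), and 367, 739 and 859 after IR (days 1, 3 and 14). All 19 lay in cluster 4, led by Sprr1a, Nmrk2 and Nppa. The same cluster had a median share of 74.7% in 148 wells of IR day 3, of 78.0% in 26 wells of IR day 1 and of 67.2% in 31 wells of IR day 14. Few sham wells lay in it, with a median of 74.2% in 12 wells of day 1 and of 50.6% in 5 wells of day 14.

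The gap between MI and the other groups was also seen among deep wells. With at least 8000 nuclear UMIs, the 10 MI wells had a median chrM share of 3.40%, the 45 wells of IR day 3 had 63.5%, the 25 of day 1 sham 72.1% and the 38 of IR day 14 66.8%. When wells with 500 UMIs or more were clustered, all 19 MI wells fell in a cluster without a name, so their class depends on that limit. The MI plates carry a protocol label of their own, and library batch and MI group cannot be told apart.

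**Figure D3:**
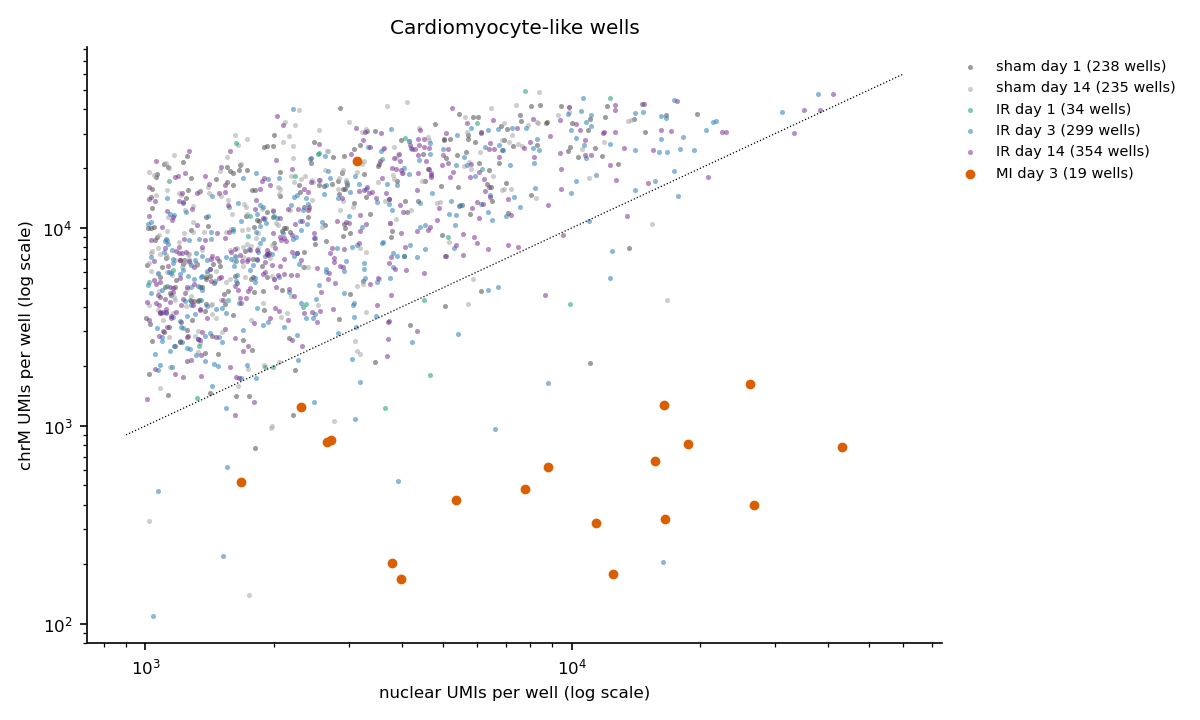
chrM UMIs against nuclear UMIs of each cardiomyocyte-like well, both axes on a log scale, coloured by group with the 19 MI wells enlarged. The dotted line marks equal numbers. MI wells lie below it except 1, and most wells of the other groups lie above it.

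The fit called 31 of 34 chrM genes lower and 0 higher in MI, where 23.7% of all rows were called lower and 11.6% higher, and 22 lay below every sham plate, where 14.2% of all rows did. The 13 abundant genes fell by 6.38 to 7.38 on the log2 scale (adjusted p 2.22e-10 to 1.12e-08). mtCo1 had 2166 and 11860 per 1e6 nuclear UMIs on the MI plates and 365408 to 656813 on the sham plates, and fell by 7.16 (SE 0.99, adjusted p 2.56e-09). mt-Rnr2 had 4066 and 16273 against 304840 to 750361. mtNd6 fell by 5.31, with 11 UMIs in MI and 3830 in sham.

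The tRNAs were at the floor of detection in MI: 14 chrM rows had 0 UMIs on these plates and 18 had 3 or fewer. mt-Ti had 0 UMIs against 5175, which is at least 140-fold lower when 3 counts over the group are set as the floor. mt-Tv, the tRNA for valine, had 2 against 131, a ratio of 0.188 with a counting interval of 0.0225 to 0.693, and its log2 fold change of -2.97 went to -7.02 without MI replicate 3 and to -1.79, no longer called, without MI replicate 2. mt-Tc, mt-Tp and mt-Tr were not called. The median log2 fold change was -6.95 over the chrM genes, -5.29 with genes at 0 set to their bound, and -0.37 over the nuclear rows.

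Endothelial-like wells held a chrM share of 31.6, 51.8, 48.3 and 42.4% on the day 1 sham plates and of 44.4, 30.3, 51.2 and 48.4% on those of day 14 sham. IR day 1 plates ran from 12.7 to 52.6% with a median of 39.4% (n = 8), and IR day 14 plates were at 47.0, 44.3 and 45.9%. Both overlapped sham, with differences of -7.64 and 2.17 points. The first was -11.95 pooled over wells and -4.325 without mixed wells, and ran from -11.6 to -4.88 without single sham plates. The sign of the second turned under 4 other settings, and without replicate 2 of day 14 sham it was -2.24. Cardiomyocyte markers in these wells were 5.71 to 66.1 UMIs per 10000 on the IR day 1 plates and 101 to 157 on the day 1 sham plates, and among wells under 50 per 10000 the day 1 difference was -5.69 points, with 0 chrM genes called. Of 18 chrM genes tested, edgeR and DESeq2 called 0 in either comparison. In IR day 1, where 9.40% of all rows were called lower and 3.83% higher, 2 chrM genes had an unadjusted p under 0.05, and changes ran from -1.41 (mt-Ti, adjusted p 0.132) to -0.14 (mtNd6). In IR day 14 no row of any kind was called (0.00%), 0 chrM genes had an unadjusted p under 0.05, and changes ran from -0.94 (mtAtp8) to 0.82 (mt-Rnr1). On day 3 after IR the 3 plates had 23.5, 31.0 and 47.8%.

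In MI the endothelial-like wells were at 9.04, 10.2, 12.0, 11.4 and 15.3% (11.6% ± 2.35, n = 5), all below every sham plate (43.6% ± 8.38, n = 8). chrM UMIs per well overlapped, with 824 to 2816 in MI and 1392 to 4717 in sham, whereas nuclear UMIs were 3660 to 27524 against 2303 to 4046. Of 18 chrM genes 17 were called lower and 0 higher, where 14.6% of all rows were called lower and 20.8% higher. The 13 abundant genes fell by 2.03 to 3.72.

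mtCo1 had 9044 to 22924 per 1e6 nuclear UMIs in MI, with a median of 15558, and 68169 to 196933 in sham, with a median of 143770. The largest change was that of mt-Ti, with 9.54, 12.0, 65.6, 36.8 and 49.9 on the MI plates, all below the sham plates, and a fall of 4.66 (SE 0.80, adjusted p 1.68e-05). mtNd6 was the gene not called, at -1.81 (SE 0.75, adjusted p 0.0568). Every MI plate lay below every sham plate for 14 of the 18 and for 6.17% of all rows on the scaled values, and for 15 and 7.60% of all rows on the unscaled levels.

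Cardiomyocyte markers moved with this result. All 8 were detected in endothelial-like wells, with a sum of 101 to 157 UMIs per 10000 on day 1 sham plates, 112 to 362 on day 14 sham plates and 3.20 to 5.31 on MI plates. Among wells under 50 per 10000, the median share was 34.7% in 28 wells of day 1 sham, 25.8% in 10 of day 14 sham and 11.2% in 57 of MI, and the difference of plate medians was -27.3 points. With these wells and day 1 sham alone 7 chrM genes were called lower. In sham wells the share was higher where the marker sum was higher (Spearman 0.67 in day 1 and 0.79 in day 14, over wells that share plates). Different clusters also held the class: 53 of 57 MI wells were in cluster 10, with a median of 11.1%, where day 1 sham had 6 wells at 24.7% and IR day 1 had 44 at 39.1%, while most sham wells were in cluster 5.

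Macrophage-like wells had the lowest pooled median share of the 5 classes. The day 1 sham plates were at 14.3, 21.6 and 17.1%, the 1 plate of day 14 sham was at 28.0% and that of IR day 14 at 15.9%, the 9 IR day 1 plates ran from 10.3 to 34.8% with a median of 16.1%, and the 6 IR day 3 plates from 9.00 to 29.2% with a median of 12.1%. IR day 3 overlapped IR day 1, with a difference of -3.27 points. Of 18 chrM genes 2 were called lower on day 3 and 0 higher, where 12.8% of all rows were lower and 12.4% higher. mtNd3, of complex I, fell by 1.48 (SE 0.42, adjusted p 0.00881), from 2591 to 16645 (median 8706) per 1e6 nuclear UMIs to 1516 to 6317 (median 3136). mtAtp8, of the ATP synthase, fell by 1.23 (SE 0.41, adjusted p 0.0250), from 292 to 2211 (median 1000) to 106 to 658 (median 454). Both sets of plates overlapped.

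The other changes in macrophage-like wells ran from -1.78 for mt-Ti (adjusted p 0.0726) to 0.30 for mtCo1 (adjusted p 0.506). The 2 calls depended on scaling: RLE factors gave 4 and ERCC scaling 0. Of the IR day 1 wells 95 were in cluster 3, with a median share of 18.1%, and of the IR day 3 wells 159 were in cluster 2, with 12.5%. Cardiomyocyte markers in these wells were 2.29 to 11.7 per 10000 on IR day 1 plates and 7.05 to 34.3 on IR day 3 plates.

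Against IR day 3, the macrophage-like wells of MI were at 6.79, 6.14, 8.37, 7.92 and 14.7%, of which 4 were below every IR plate, a difference of -5.93 points. Cardiomyocyte markers were 3.62 to 8.38 per 10000 on the MI plates and 7.05 to 34.3 on the IR day 3 plates, and in wells under 50 per 10000 the difference was -4.97 points. chrM UMIs per well were 1884 to 2274 in MI and 399 to 2115 in IR day 3, with nuclear UMIs of 11644 to 31181 and 1122 to 14000. edgeR called 0 chrM genes, with 7 at an unadjusted p under 0.05, and DESeq2 called 4 lower. Over all rows 5.60% were called higher and 2.77% lower. Changes ran from -1.20 for mtCytb (adjusted p 0.109) to 1.26 for mtNd6 (adjusted p 0.119), and 1 chrM gene was above every IR plate on every MI plate, where 9.20% of all rows were. MI wells were split over cluster 2 (121 wells) and cluster 3 (157 wells), with medians of 8.24 and 7.32%.

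Fibroblast-like wells were lower in MI than after IR on the same day. The MI plates were at 6.34, 6.57, 6.79, 6.70 and 10.4% (7.36% ± 1.71, n = 5) and the IR day 3 plates at 18.2, 19.4, 13.4 and 24.7% (18.9% ± 4.66, n = 4), without overlap. chrM UMIs per well were 3000 to 6232 in MI (median 3710) and 452 to 3754 in IR day 3 (median 1569). The lower share thus stood beside a higher median of chrM UMIs, with overlapping plates. Nuclear UMIs were 36330 to 54983 in MI and 1886 to 11440 in IR day 3. Of 18 chrM genes 9 fell and 0 rose, where 4.55% of all rows were called lower and 6.32% higher. They were mtNd1, mtNd2, mtNd4, mtNd4l and mtNd5 of complex I, mtCytb, mtCo1, mtCo2 and mtAtp6.

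In these wells mtNd2 fell by 2.16 (SE 0.48, adjusted p 0.00523), to 3288, 5101, 4401, 4069 and 8122 per 1e6 nuclear UMIs, from 24137, 21718, 12478 and 37715. On these unscaled levels 11 chrM genes and 4.62% of all rows had every MI plate below every IR plate, and on the TMM-scaled values 2 chrM genes and 3.33% of all rows had. mtNd6 was at 0.40 (adjusted p 0.545). Finer clustering moved the difference in share to -25.4 points, with 15 chrM genes called. Without replicate 7 of IR day 3, 2 chrM genes were called, and without any one of MI replicates 1 to 4, 5. Scaling to the spike-ins left 0, and wells with under 50 cardiomyocyte marker UMIs per 10000 left 2 and a difference of -7.43 points. Cardiomyocyte markers were 3.83 to 5.43 per 10000 on MI plates and 12.0 to 67.2 on IR day 3 plates. Of the MI wells 131 of 132 lay in cluster 6, which held 36 IR day 3 wells, at 18.9%, beside 20 in cluster 12, at 17.7%.

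Neutrophil-like wells were compared between MI day 3 and IR day 1, so the day differed along with the surgery. The 9 IR plates ran from 22.4 to 60.0% with a median of 38.2%, and the MI plates were at 11.7, 14.4, 15.4, 14.9 and 22.9%. Of the MI plates 4 lay below every IR plate. Of 14 chrM genes 13 were called lower and 0 higher, where 10.7% of the 513 rows tested were lower and 4.68% higher, and 5 were below every IR plate on every MI plate on the scaled values, where 2.92% of all rows were. On the unscaled levels this held for 1 chrM gene, mtNd5, and 1.56% of all rows. mtAtp8 fell by 2.75 (SE 0.54, adjusted p 0.00129), to 418, 643, 553, 713 and 565 per 1e6 nuclear UMIs, from a range of 635 to 14766 with a median of 2484. mt-Rnr2 was the gene not called, at -1.22 (SE 0.47, adjusted p 0.0718), with 25317 to 79509 (median 42299) against 36363 to 214725 (median 101554). With at least 10 wells per plate, or wells of at least 2000 UMIs, 0 chrM genes were called. The class was 1 cluster in both groups, and its cardiomyocyte markers were 3.45 to 44.5 per 10000 on IR plates and 2.28 to 13.1 on MI plates.

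The mix among chrM genes was alike in broad outline in all 5 classes, with moderate shifts. mt-Rnr2 took 13.4% ± 2.44 (SD, n = 22 plates) of chrM UMIs in cardiomyocyte-like wells and 15.6% in fibroblast-like and neutrophil-like wells. mt-Rnr1 took 5.77% ± 1.73 in cardiomyocyte-like and 3.88% ± 1.80 (n = 25) in macrophage-like wells. mtCo1 took 11.1% ± 1.73 in cardiomyocyte-like and 7.56% ± 1.91 (n = 14) in neutrophil-like wells. In the other direction, mtAtp6 took 9.15% ± 2.14 in cardiomyocyte-like and 11.8% ± 3.34 in macrophage-like wells. These means pool plates of different groups, the SDs are wide beside the gaps, and no test was run between classes. On plates that held both classes the gaps of mtCo1 and mtAtp6 were smaller. mtCo1 was higher in cardiomyocyte-like than in neutrophil-like wells on 5 of 5 such plates, by a median of 1.69 points, and mtAtp6 was lower in cardiomyocyte-like than in macrophage-like wells on 13 of 15, by a median difference of -1.35 points. mt-Rnr1 was higher in cardiomyocyte-like than in macrophage-like wells on 13 of 15 plates, by 2.26 points.

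Ratios between neighbouring genes also differed between these classes. The 12S to 16S rRNA ratio (mt-Rnr1 over mt-Rnr2) was 0.436 ± 0.117 in cardiomyocyte-like and 0.267 ± 0.102 in macrophage-like wells. Correcting the counts for molecules that share a UMI brought these to 0.307 and 0.243, and the gap between the classes was then smaller. Uncorrected, the ratio was higher in cardiomyocyte-like wells on 14 of the 15 plates with both classes. The overlapping pairs moved likewise: mtAtp8 over mtAtp6 was 0.0449 in cardiomyocyte-like and 0.0256 in macrophage-like wells (0.0293 and 0.0229 corrected), and mtNd4l over mtNd4 was 0.138 and 0.0817 (0.0943 and 0.0725 corrected). Each pair shares the bases shown in capitals near the start, which a read from either member can match.

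**Figure D4:**
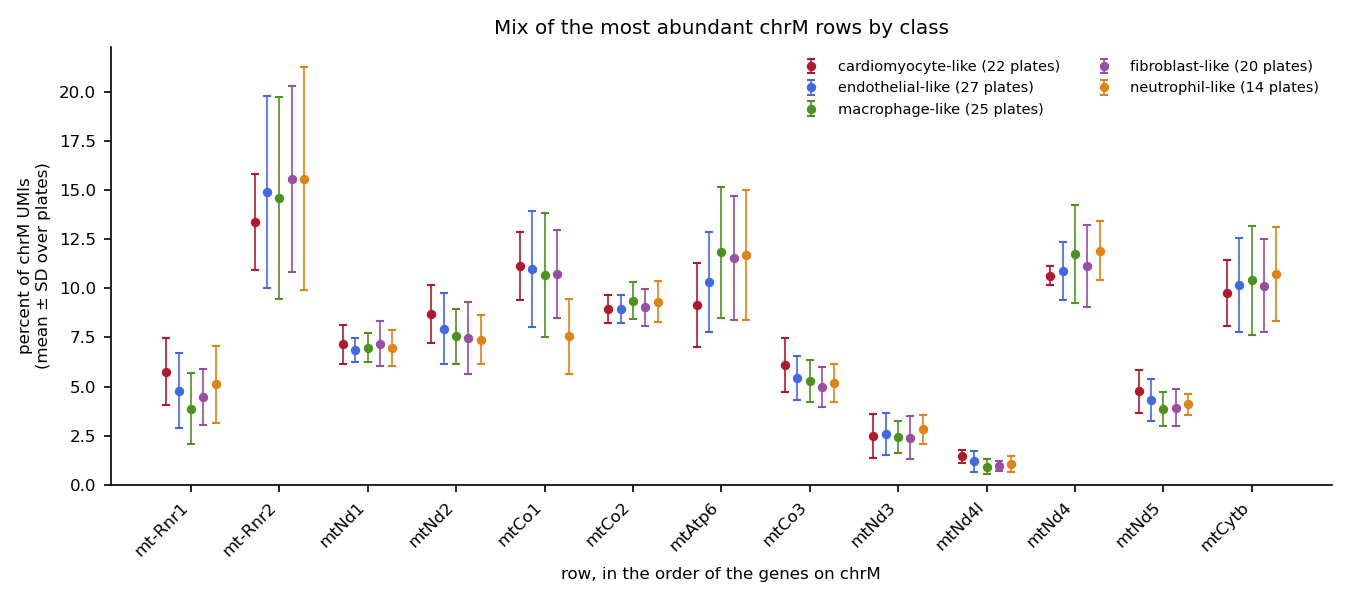
Percent of chrM UMIs taken by each of the 13 abundant genes, in genome order, as the mean ± SD over plates for 5 cell classes. mt-Rnr2 has the highest mean in each class, mt-Rnr1 is highest in cardiomyocyte-like wells and mtCo1 is lowest in neutrophil-like wells, with wide bars throughout and with groups that differ between the classes.

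The share of tRNAs among chrM UMIs varied widely between plates of a group. In cardiomyocyte-like wells it was 2180, 1737, 2085 and 1806 tRNA UMIs per 1e6 chrM UMIs in day 1 sham, and 1425, 2163 and 1351 in IR day 14. The day 14 sham plates split into 1819 and 2740 on replicates 1 and 5 and 411, 377 and 408 on replicates 2, 6 and 8. IR day 3 was at 82.4, 843, 2972, 721 and 302, and IR day 1 at 2058, 2942 and 1206. The 2 MI plates were at 1590 and 1816, from 3 and 9 tRNA UMIs, within the range of the other plates.

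Plates rich in tRNA in one class tended to be rich in tRNA in the others. Over the 18 plates with both classes, the tRNA part in cardiomyocyte-like and endothelial-like wells had a Spearman correlation of 0.84, and the correlation with fibroblast-like wells was 0.92 over 13 plates and with macrophage-like wells 0.67 over 15. It was weaker between the other classes, at 0.59 for endothelial-like with macrophage-like wells (21 plates), 0.58 for endothelial-like with fibroblast-like wells (19 plates) and 0.51 for macrophage-like with fibroblast-like wells (17 plates). These points share a plate, its library and its sequencing run. mtAtp6 behaved in the same way, with 0.95 over the plates with endothelial-like wells and 0.87 over those with macrophage-like wells, and mtCo1 had 0.91 with endothelial-like wells. The tRNA part did not follow the number of chrM UMIs over the 22 cardiomyocyte plates (Spearman 0.01), and went with the part of mtNd3 at 0.59. In cardiomyocyte-like wells the tRNA part of a plate comes from the same counts as the tRNA calls of IR day 3 and day 14. The part of such plate differences in those calls was not tested.

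**Figure D5:**
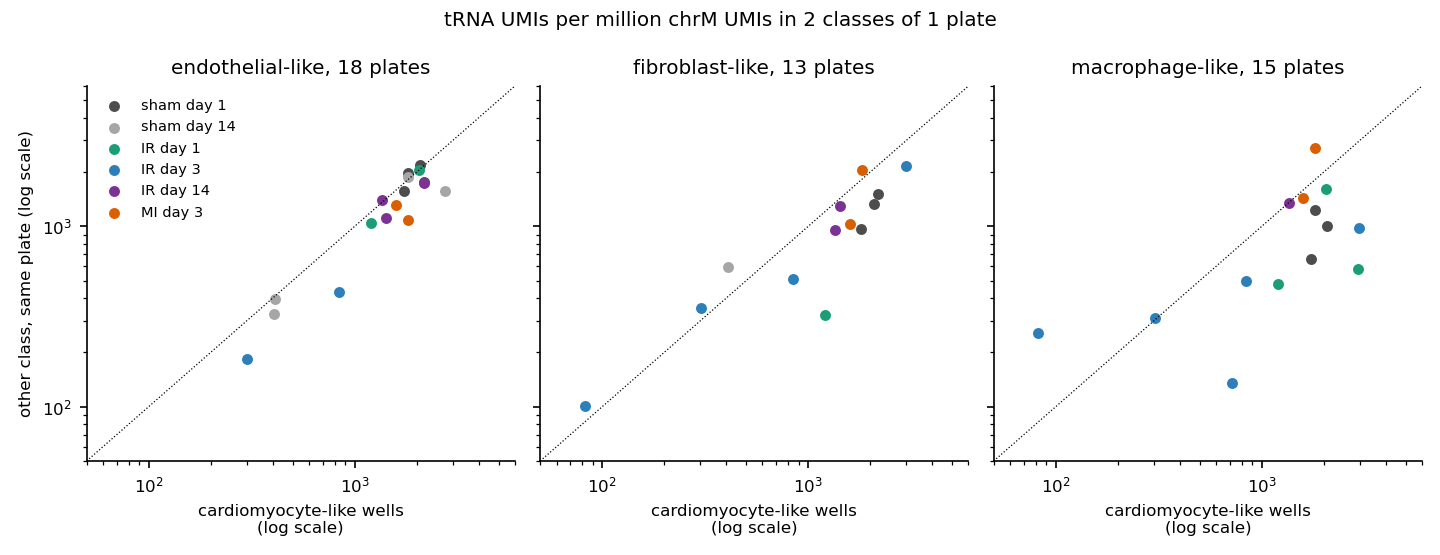
tRNA UMIs per 1e6 chrM UMIs in cardiomyocyte-like wells (x axis) against endothelial-like, fibroblast-like and macrophage-like wells of the same plate (y axis), on log axes, for 18, 13 and 15 plates. The dotted line marks equality. Day 14 sham replicates 2 and 8 are low in cardiomyocyte-like (411 and 408) and endothelial-like wells (397 and 327), and replicates 1 and 5 are high in both.

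Nuclear genes for the respiratory chain changed far less than the chrM genes in MI cardiomyocyte-like wells. The 78 nuclear-encoded subunits of complexes I to V together took 606 and 689 UMIs per 10000 nuclear UMIs on the MI plates, 468 to 631 in day 1 sham and 516 to 932 in day 14 sham. Of 76 tested 16 fell and 2 rose, which is no larger a part than the 23.7% lower and 11.6% higher among all rows, with a median log2 fold change of -0.46, beside -0.37 over all nuclear rows. The members that fell furthest were Cox6a2, a striated-muscle subunit of complex IV (-2.86), Ndufs1 (-2.21) and Ndufa9 (-2.17) of complex I, and Cox4i1 of complex IV (-2.16). In IR day 1 cardiomyocyte-like wells 45 of 76 fell and 0 rose (Ndufs3, of complex I, by 2.25), where 15.1% of all rows fell, with a median of -1.38 beside -0.93 over nuclear rows, while 1 of the 13 chrM mRNAs fell. Cardiomyocyte markers moved with this count, from 564 to 787 per 10000 in sham to 277 to 397, and their part in it was not tested. Calls of nuclear genes, here and in the lists below, were made with TMM scaling only. In this comparison the direction of the chrM calls depended on the scaling.

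Few members of the list were called in the other cardiomyocyte comparisons. In IR day 3, 2 of 76 fell, Ndufa13 of complex I by 1.31 and Cox7a1 of complex IV by 1.05, near the 1.79% of all rows, with a median of -0.39 and 20 at an unadjusted p under 0.05. In IR day 14, 0 were called against day 14 sham by edgeR, with 0 at an unadjusted p under 0.05, and Ndufa13 rose by 1.43 against IR day 3, where 1.40% of all rows rose, the median of the list was 0.55 and 19 had an unadjusted p under 0.05. In endothelial-like wells 30 of 75 fell in IR day 1, where 9.40% of all rows did, and 47 of 75 in MI, where 14.6% did (median -0.98 in each), and 0 in IR day 14. The median plate had 145 cardiomyocyte marker UMIs per 10000 in day 1 sham, 25.2 in IR day 1 and 3.63 in MI, and the part of this RNA in the counts was not tested. In MI the largest falls were muscle isoforms, Cox6a2 (-8.19), Cox8b (-7.08) and Cox7a1 (-5.34), which fell beside the cardiomyocyte markers. In macrophage-like wells 3 of 73 rose and 2 fell in IR day 3 and 1 each in MI, and in fibroblast-like wells of MI 5 of 76 rose and 2 fell, which is near or below the 12.4% and 12.8%, the 5.60% and 2.77%, and the 6.32% and 4.55% of all rows called higher and lower in these comparisons. None of the 4 tested in neutrophil-like wells passed.

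The machinery of mitochondrial gene expression, 40 genes of which 17 could be tested in cardiomyocyte-like wells, had 4 lower in MI, a part no larger than the 23.7% of all rows. They were Lrpprc, which stabilises mitochondrial mRNAs (-3.15), Fastkd1 (-3.21), and Ppargc1a (-3.01) and Ppargc1b (-2.48), coactivators of mitochondrial biogenesis. Of these Lrpprc (-3.05), Ppargc1a (-2.93) and Ppargc1b (-3.86) were also lower in IR day 1, where 15.1% of all rows were lower and the chrM share overlapped sham. edgeR called 0 in IR day 3 and in both IR day 14 comparisons, with 1, 0 and 2 at an unadjusted p under 0.05. In fibroblast-like wells of MI, Tbrg4 (1.90) and Mrpl12 (1.40) rose among 14 tested, where 6.32% of all rows rose, and 0 were called in endothelial-like and macrophage-like wells.

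The 16 import and matrix genes had 8 lower in IR day 1 cardiomyocyte-like wells, where 15.1% of all rows and the cardiomyocyte markers were lower too, led by Vdac3 of the outer membrane pore (-2.74). In MI Vdac2 rose (1.09) and the chaperone Hspd1 fell (-1.69), and 0 were called in the IR day 3 and day 14 comparisons. In MI, 2 rose and 2 fell in endothelial-like wells (Chchd10 by 5.21, Slc25a4 by 3.14), 4 rose and 1 fell in fibroblast-like wells, where 6.32% of all rows rose and 4.55% fell, 1 each in macrophage-like wells, and the 1 gene tested in neutrophil-like wells rose, where 4.68% of all rows did. In endothelial-like wells of IR day 1, 2 fell, and in macrophage-like wells of IR day 3, 1 rose and 2 fell. These lists are short, and 1 or 2 calls among their members are near the shares of all rows given above.

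Over the 22 cardiomyocyte plates, the nuclear rows whose level went most closely with chrM UMIs per nuclear UMI, among 1199 rows of at least 100 UMIs per 1e6, were Rn45s, the precursor of nuclear rRNA (Spearman 0.73), Hspa5, an endoplasmic reticulum chaperone (0.68), Magt1 (0.64), Bsg (0.61) and Trdn, of the calcium release unit (0.61). Without the MI plates these were 0.66, 0.58, 0.53, 0.48 and 0.49 over 20 plates. The plates share groups and depth, so this is a description. Rn45s took 23.4 to 28.3% of nuclear UMIs on day 1 sham plates, 3.59 to 36.5% on day 14 sham plates and 6.94 and 1.57% on the MI plates, so its part of the denominator against which the chrM genes were read differed between plates.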

How the data were processed

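Cells were sorted into 36 plates of 384 wells and sequenced by SORT-seq, in which poly(T) CEL-seq primers carry a UMI of 6 bases. The authors aligned reads with BWA to GRCm38/mm10 and deposited raw UMI counts per gene and well, 1 table per plate. The study discarded mitochondrial genes before its own clustering, whereas they were kept here. No per-sample column was left unused (0).

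Plates were grouped by their labels. Wells with at least 1000 nuclear UMIs were kept, and the classes came from nuclear rows only (2000 variable genes, 30 principal components, 15 neighbours, Leiden resolution 1, Python 3.11.15, scanpy 1.11.5, leidenalg 0.10.2), named by marker lists. No doublet caller was run, and wells with markers of a second class were instead left out as an alternative. A chrM share is the percent of UMIs without spike-ins, as the median over the wells of a plate. These sums over genes received no test. For genes, UMIs were summed per plate and class (at least 5 wells) and 1 model over every group was fitted by edgeR 4.0.16 (R 4.3.3, limma 3.58.1) after filterByExpr, using TMM factors of the nuclear rows and the quasi-likelihood F test, with calls at an adjusted p under 0.05. A group with few plates is thereby assumed to vary like the others. A comparison "against sham" used the mean of both sham groups. On simulated counts for IR day 3 against sham (4359 rows), 96.0% of 4-fold and 51.5% of 2-fold changes were recovered, with 5 false calls. The changes were planted only in rows above the median level, and every row was given the same spread. The recovery of changes in rarer or more variable rows is therefore not known.

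Copies of wells were found from correlated profiles of the same well position on another plate. Genes above 1% of chrM UMIs, and those with the largest and smallest change of a comparison, were named. Nuclear genes were named from 3 lists: respiratory chain and ATP synthase (78 genes), mitochondrial gene expression (40) and import and matrix (16). The choice of the chrM rows, the lists and the tests was made with earlier results of these data known. Alternatives were DESeq2 1.42.0, RLE and ERCC scaling, no filter on low counts, limits of 500 and 2000 UMIs and of 10 wells, resolution 2, a correction for molecules that share a UMI, a replicate block, and leaving out plates of groups of 2 to 5. Limits on cardiomyocyte markers (50 UMIs per 10000) were added after seeing the data. Counting intervals are exact 95% intervals and cover counting error only. Gene positions and sequences are from GENCODE vM21 (GRCm38).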

Additional observations from a re-analysis of the deposited data

Results flagged for a closer look

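In 120 groups of 4 to 10 plates, over 8 measures of the chrM share and mix, 19 values lay far from the rest of their group by Dixon's criterion, and they came from 9 plates. Chance gives about 1 in 20 groups, and the measures of a plate are related. No explanation was tested.

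IR day 3 replicate 3 and MI replicate 5 stood apart in share. IR day 3 replicate 3 had 28.4% in cardiomyocyte-like wells, where the other plates of the group had 70.8 to 80.2%, and 29.2% in macrophage-like wells, where the others had 9.00 to 14.1%. It was thus low in one class and high in the other. The same plate had 16.6% mtAtp6 among the chrM UMIs of cardiomyocyte-like wells, against 8.35 to 10.3%. MI replicate 5 had 10.4% in fibroblast-like wells, against 6.34 to 6.79%, and 14.7% in macrophage-like wells, against 6.14 to 8.37%. In its macrophage-like wells mt-Rnr1 over mt-Rnr2 was 0.426, against 0.240 to 0.274, and mtNd3 took 2.99% of chrM UMIs, against 1.95 to 2.11%.

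For tRNA UMIs per 1e6 chrM UMIs, IR day 3 replicate 5 had 2972 in cardiomyocyte-like wells, against 82.4 to 843. MI replicate 4 had 2830 in endothelial-like wells, against 722 to 1317. MI replicate 3 had 2049 in fibroblast-like wells, against 967 to 1115, and 2730 in macrophage-like wells, against 1167 to 1524.

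IR day 1 replicate 7 had high ratios of short to long genes. mtAtp8 over mtAtp6 was 0.141 in its endothelial-like wells, against 0.0251 to 0.0797, and 0.0728 in its macrophage-like wells, against 0.0176 to 0.0354. In the macrophage-like wells mtNd4l over mtNd4 was 0.257, against 0.0510 to 0.0886, and mt-Rnr1 over mt-Rnr2 was 0.619, against 0.202 to 0.326. IR day 1 replicate 5 had an mtAtp8 over mtAtp6 of 0.0766 in neutrophil-like wells, against 0.0211 to 0.0328, and an mt-Rnr1 over mt-Rnr2 of 0.687, against 0.261 to 0.416. In fibroblast-like wells of IR day 3 replicate 7, mtNd4l over mtNd4 was 0.175, against 0.0696 to 0.0722. In cardiomyocyte-like wells of day 1 sham replicate 4, mtNd3 took 3.27% of chrM UMIs, against 2.32 to 2.47%.

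Wells under the limit of 1000 nuclear UMIs entered no comparison, and on the IR day 1 plates they held 67.2% of all chrM UMIs, against 36.2% in day 1 sham.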

How the results depend on the processing

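Of 178 counts of called chrM genes under other settings (without those that leave out a plate), 137 kept their direction and stayed within 1.5 times, as did 309 of 354 changes of single named genes. Of 130 differences in share 8 turned in sign, and several that kept their sign moved by more than 1.5 times. Causes of the values that moved were not tested. For IR day 1 cardiomyocyte-like wells, where 3 lower and 1 higher were called, DESeq2 and RLE scaling each called 2 and ERCC scaling 1, all higher, and at least 10 wells per plate, 2000 UMIs or 500 UMIs gave 0; leaving out single plates gave 2 to 5, with 2 without IR replicate 2 or 3 or sham replicate 1. Its difference in share was 0.349 points pooled over wells, 3.51 with 500 UMIs, 8.44 with 2000 UMIs, 3.62 with 10 wells, and -8.08 to 2.03 without single plates. For IR day 3 the 16 calls became 6 against day 14 sham alone, 8 with ERCC scaling and 10 to 17 without single plates. The IR day 3 difference in share was -4.13 points with finer clustering, -4.94 with 10 wells, -7.09 with 2000 UMIs and -8.10 pooled over wells. It ran from -17.6 to -4.64 without single plates. IR day 14 against IR day 3 went from 13 calls to 8 with DESeq2, 6 with ERCC scaling, where mtAtp6 turned to -0.39, and 8 to 15 without single plates (8 without IR day 14 replicate 2). IR day 14 against sham gave 0 to 3, and the 31 calls in MI cardiomyocyte-like wells 27 to 31. The difference in share of IR day 14 against sham was -4.87 points pooled over wells and -4.375 with 2000 UMIs, and ran from -3.7 to -0.589 without single plates. Against IR day 3 the day 14 difference was 3.07 points with finer clustering and 3.93 with 2000 UMIs.

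In endothelial-like wells of IR day 1, 10 wells per plate gave 3 calls and no filter 1, and mtNd6, at -0.14, turned to 0.29 with DESeq2, 0.22 with RLE, 0.38 with ERCC scaling, 0.61 with 2000 UMIs, 0.48 without mixed wells, with -0.44 to 0.45 (without sham replicate 3) when single plates were left out. The share of IR day 14, 2.17 points above sham, turned to -4.37 pooled over wells, -0.684 with 2000 UMIs, -2.24 with 10 wells and -2.79 without mixed wells, and ran from -2.24 (without day 14 sham replicate 2) to 4.71 without single plates; mt-Rnr1 turned to -0.0108 after correction for shared UMIs. In MI, 17 calls became 7 in wells low in cardiomyocyte markers against day 1 sham alone, a setting chosen after seeing the data, and 17 to 18 without single plates, and the difference in share was -38.3 points pooled and -25.5 without mixed wells.

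In macrophage-like wells of IR day 3, 2 calls became 4 with DESeq2, RLE or without mixed wells, 12 without a filter, 7 in wells low in cardiomyocyte markers, 1 with 2000 UMIs, and 0 with finer clustering or ERCC scaling; mtCo1 turned to -0.0105 with 500 UMIs and to -0.00896 after correction for shared UMIs. For MI the 0 calls became 4 with DESeq2, 10 without a filter (4 higher, 6 lower), 1 each with RLE, 10 wells, finer clustering and 500 UMIs, 2 without mixed wells, both higher, and 0 to 2 without single plates. In fibroblast-like wells 9 calls became 14 with 10 wells, 15 with finer clustering (where mtNd6 turned to -0.80), 14 without a filter, 0 with ERCC scaling, 2 in wells low in cardiomyocyte markers, and 2 to 10 without single plates; the difference in share was -25.4 points with finer clustering and -7.43 in wells low in cardiomyocyte markers. In neutrophil-like wells 13 calls became 0 with 10 wells or 2000 UMIs, and 11 to 13 without single MI plates.

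Plates share only a replicate number: of 29 pairs of same-numbered plates 3 correlated above 0.1 (-0.0935 to 0.119). With the replicate block, calls went to 1 in IR day 3 and to 1 in IR day 14 against IR day 3 in cardiomyocyte-like wells, to 0 and 2 in macrophage-like wells of IR day 3 and MI, to 0 in fibroblast-like wells and to 8 in neutrophil-like wells.

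MI cardiomyocyte-like wells gave no value with 500 UMIs, where none was named, or with 10 wells per plate, and neither did IR day 14 endothelial-like wells low in cardiomyocyte markers. Of the 22 tRNAs 20 were found in under 50% of the wells, so their values rest on few UMIs. UMI saturation limits the abundant genes. The 2 MI plates of cardiomyocyte-like wells held 6 such wells each.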

Other observations

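Some wells under 1000 nuclear UMIs held at least 1000 chrM UMIs. On the day 1 sham plates they were 685, or 62.1% of the wells under that limit, on IR day 1 plates 1577 (53.4%) and on IR day 14 plates 412 (61.0%). Day 14 sham had 834 (31.3%), IR day 3 had 344 (16.5%) and MI had 250 (20.9%). The chrM share of such a well is above 50% by the way it was chosen. Cardiomyocyte markers (Myh6, Tnnt2 and others) made up 988 UMIs per 10000 nuclear UMIs of the day 14 sham wells, 834 of the IR day 14 wells, 724 of the day 1 sham wells and 672 of the IR day 3 wells, but 138 of the IR day 1 wells and 44.8 of the MI wells. Wells chosen in this way thus carried fewer transcripts of the contractile apparatus per nuclear UMI in IR day 1 and MI than in the other groups. Markers of other classes differed too. Fibroblast and macrophage markers were 142 and 41.7 per 10000 in MI, against 11.5 to 95.3 and 1.56 to 30.5 in the other groups. Neutrophil markers were 40.6 in IR day 1, against 0.999 to 6.20 in the other groups. The part of the mix of cell types in these values was not tested.

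Among the kept wells without a class, the 104 of IR day 1 had a median chrM share of 81.2%, the 37 of day 1 sham and the 43 of IR day 14 of 52.1%, the 179 of MI of 41.2%, the 22 of IR day 3 of 22.2% and the 56 of day 14 sham of 6.74%. One unnamed cluster of 82 wells had a median of 89.0%.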
